A study of Mus musculus with 9 samples.

Results

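The genes described here are the 5 subunits of NF-kB and 5 of its inhibitors, 10 genes of the 30406 gene identifiers that all 9 libraries share. They were picked by gene symbol and role: Nfkb1, Nfkb2, Rel, Rela and Relb code for the subunits, and Nfkbia, Nfkbib, Nfkbie, Nfkbiz and Tnfaip3 for the inhibitors. All 10 were detected, and all 10 passed the filter on low counts in macrophage-like, fibroblast-like and neuron-like cells.

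The libraries are single-cell 3′ RNA libraries of mouse embryonic fibroblast (MEF) cultures that were being reprogrammed into induced neurons. Per the study's methods, the cultures were prepared from pooled embryos without head and heart, and all of them carried lentiviruses for reprogramming transcription factors, switched on with doxycycline. The cultures were labelled WT, Per1-/- or Per2-/-, where the mutants carried the targeted alleles Per1tm1Drw or Per2tm1Drw of a circadian clock gene, and were sampled on days 4, 7 and 10. Each genotype and day is 1 library with no replicate, so WT on day 7, for example, is 1 library, and a genotype cannot be told apart from the embryos that were used for it.

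NF-kB is a family of dimeric transcription factors that drives inflammatory and survival genes. In resting cells the dimers are held in the cytoplasm by IkB proteins, and signals from TNF, IL-1 or Toll-like receptors lead IkB kinase to mark IkB for destruction, which lets the dimers enter the nucleus. Several inhibitor genes are themselves switched on by NF-kB and so form feedback loops, and in macrophages the pathway controls cytokine and chemokine genes.

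On the GRCm38 assembly, the subunit genes lie at chromosome 3, 135584655 to 135691547 (Nfkb1, which codes for p105, the precursor of p50), chromosome 19, 46304320 to 46312385 (Nfkb2, for p100, the precursor of p52), chromosome 11, 23736847 to 23770970 (Rel, for c-Rel), chromosome 19, 5637483 to 5648130 (Rela, for p65) and chromosome 7, 19606217 to 19629438 (Relb, the partner of p52). The inhibitor genes lie at chromosome 12, 55489410 to 55492647 (Nfkbia, for IkB alpha), chromosome 7, 28758251 to 28767512 (Nfkbib, for IkB beta), chromosome 17, 45555703 to 45563169 (Nfkbie, for IkB epsilon), chromosome 16, 55811375 to 55838899 (Nfkbiz, for the nuclear IkB zeta) and chromosome 10, 19000910 to 19015657 (Tnfaip3, for the ubiquitin-editing enzyme A20). The 3′ ends of 2 of the 10 genes overlap a gene on the opposite strand. Nfkb2 shares 299 exon bases with Psd, and Nfkbib shares 314 exon bases with Ccer2.

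Promoter windows from RefSeq (GRCm38.p6) were on hand for 7 of the 10 genes (Nfkb2, Rel, Rela, Nfkbia, Nfkbib, Nfkbie and Tnfaip3). The 250 bases before each annotated start were searched on both strands for the kappa B consensus, the sequence that NF-kB binds. A match was present for 5 of these 7 genes (Nfkb2, Rel, Nfkbia, Nfkbie and Tnfaip3), against 8.23% of 27025 genes with a window. A match is a run of letters and not a measured binding site. The windows of Nfkbie and Rel are shown because these genes set macrophage-like cells well apart from fibroblast-like cells, and that of Nfkbia because it had the widest range of the 10 between macrophage-like libraries, with the match in capitals. They are chr12:55492648-55492897 (minus strand), chr17:45555450-45555699 (plus strand) and chr11:23770971-23771219 (minus strand), each written 5′ to 3′ on the gene's strand. Of the 250 bases searched for Rel, 249 are printed.
Nfkbia: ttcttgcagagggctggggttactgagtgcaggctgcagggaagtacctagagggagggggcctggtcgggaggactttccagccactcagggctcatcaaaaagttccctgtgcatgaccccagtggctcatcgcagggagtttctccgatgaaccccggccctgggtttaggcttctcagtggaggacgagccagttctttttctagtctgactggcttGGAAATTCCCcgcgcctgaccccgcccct
Nfkbie: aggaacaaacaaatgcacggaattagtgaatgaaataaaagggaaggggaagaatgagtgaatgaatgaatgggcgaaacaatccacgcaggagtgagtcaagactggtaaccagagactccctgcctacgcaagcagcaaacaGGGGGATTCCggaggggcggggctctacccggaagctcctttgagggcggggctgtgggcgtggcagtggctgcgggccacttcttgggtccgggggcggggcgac
Rel: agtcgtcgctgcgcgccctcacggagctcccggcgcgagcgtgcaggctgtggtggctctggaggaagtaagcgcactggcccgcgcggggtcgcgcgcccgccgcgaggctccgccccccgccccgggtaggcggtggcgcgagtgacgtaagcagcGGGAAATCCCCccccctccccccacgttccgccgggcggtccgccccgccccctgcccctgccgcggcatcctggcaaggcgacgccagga
The match of Nfkbia ends 19 bases before the annotated start and that of Nfkbie 96 bases before it. Rel holds 2 overlapping matches.

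Cells were assigned to classes by clustering without the 10 genes, the listed pathway genes and mitochondrial genes, and each class is named from its markers with the ending "-like". Of 74835 cells kept, 6488 were macrophage-like (155 to 1401 per library), 39685 fibroblast-like, 6873 neuron-like (165 to 1576), 2532 Schwann-like, 5844 skeletal muscle-like, 1027 astrocyte-like and 446 mesothelial-like, and 11940 stayed unnamed. All 18 macrophage markers and 16 of 18 neuron markers were at least 2-fold higher in their class than in the other cells. The clusters were named from these same markers, so this is no independent check. Libraries held 126625215 to 353198559 UMI. The library of WT on day 10 stood apart, as its barcodes held 3552 UMI at the median and 55.4% of them passed the limits on cells, against 86.1% to 94.5% in the other libraries. Barcodes that also occur in another library made up 2.02% of cells kept, in 696 pairs of cells of which 4.45% lay in the same cluster. The labels could not be checked from the targeted genes: Per1 transcripts were at 9.14 to 10.3 CPM in the 3 libraries labelled Per1-/- and 6.34 to 7.89 CPM in the other libraries, Per2 transcripts were at 4.97 to 6.39 CPM in the 3 labelled Per2-/- and 2.57 to 3.15 CPM elsewhere, and whether the counted 3′ ends lie in the deleted part was not established here. Xist was at 0.0674 and 0.0594 CPM in the libraries labelled Per1-/- on days 7 and 10, and at 346.6 to 995.5 CPM in the other 7, the Per1-/- library of day 4 included. Xist is made from the inactive X chromosome of female cells, and Ddx3y lies on the Y chromosome. Ddx3y was at 93.9 and 94.1 CPM in the Per1-/- libraries of days 7 and 10, and at 21.9 to 52.0 CPM in the other 7, which thus held transcripts of both genes. On days 7 and 10 the Per1-/- genotype cannot be told apart from the mix of embryo sexes. Among Per1-/- libraries the day and this difference cannot be told apart either.

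Levels are given on the usual CPM scale, from the UMI of a gene relative to the summed UMI of its class in 1 library. Because 3′ libraries count 1 end per transcript, CPM is not divided by gene length. In pooled sums fewer expressing cells and less RNA per cell cannot be told apart.

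The 10 genes were higher in macrophage-like than in fibroblast-like cells in 9 of 9 libraries. Over all 13554 genes with at least 1 CPM, 29.9% were higher in macrophage-like cells in every library and 46.6% lower. The classes were made from the same cells, so these are descriptions without a test. The distance was widest for Nfkbie, Rel and Tnfaip3, and narrowest for Relb, Rela and Nfkb1.

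**Figure D1:**
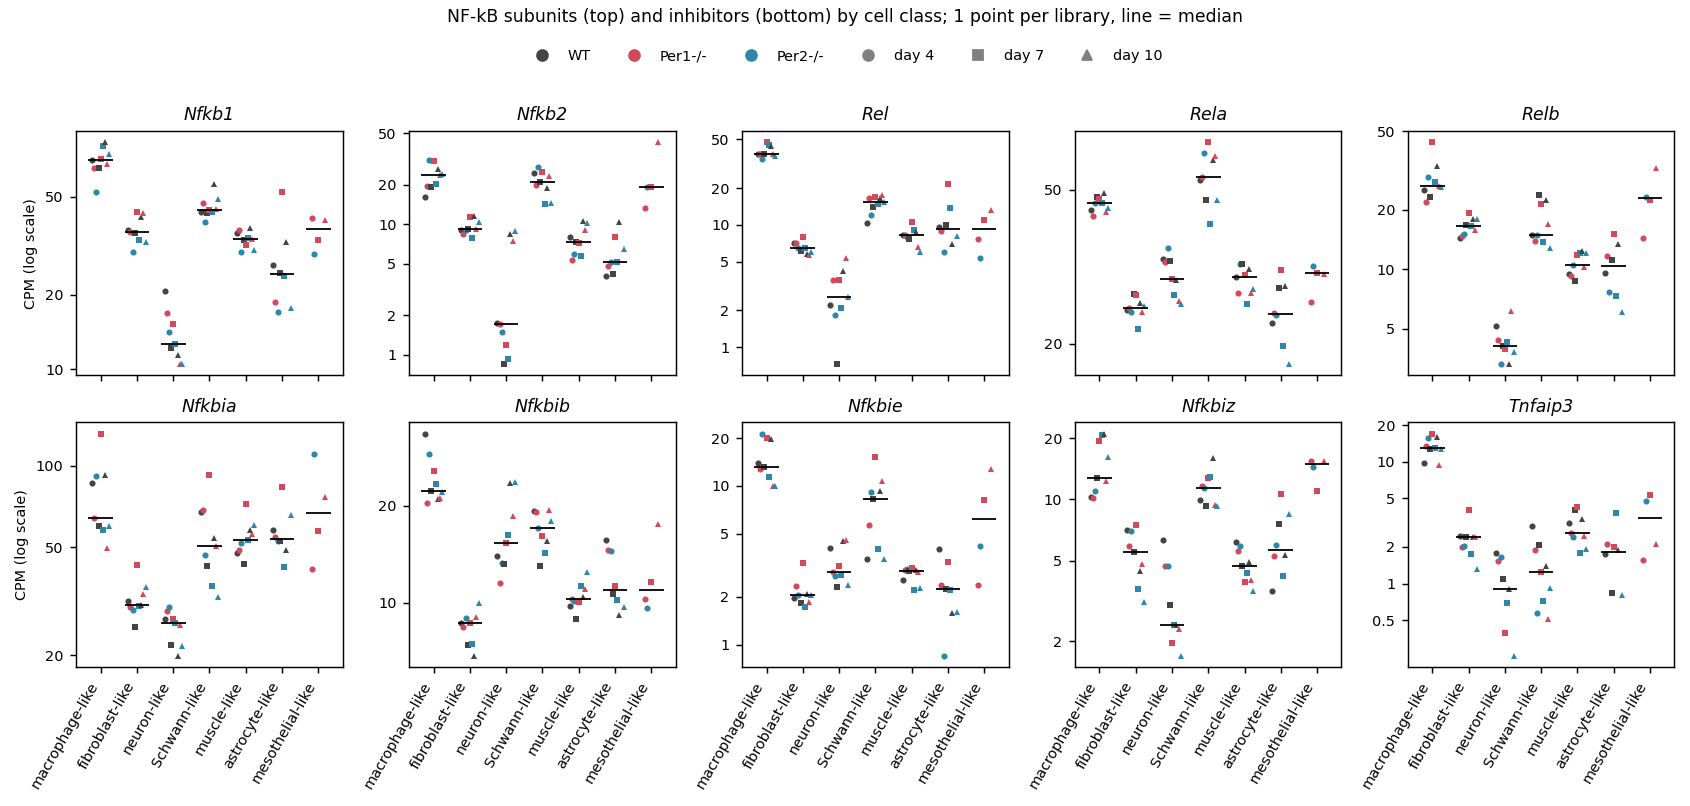
Level of each gene (vertical axis, CPM on a log scale) in 7 cell classes (horizontal axis), with 1 point per library of at least 50 cells, colour for genotype, shape for day and a line at the median. All macrophage-like points of Rel, from 34.5 to 47.6 CPM, lie above every other class, and the Tnfaip3 value of 0 CPM in neuron-like cells labelled Per1-/- on day 10 and 1 astrocyte-like value of 0 CPM cannot be drawn on this axis.

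Among the subunits, Rel, which is known mainly from blood and immune cells, separated macrophage-like cells most from fibroblast-like and neuron-like cells. Its level in macrophage-like cells had a lowest, median and highest value of 34.5, 38.1 and 47.6 CPM over the 9 libraries, against 5.63, 6.47 and 7.97 CPM in fibroblast-like cells and 0.724, 2.55 and 5.36 CPM in neuron-like cells. The ranges of macrophage-like cells and of both other classes did not overlap. The mean log2 ratio of macrophage-like to fibroblast-like cells was 2.62 ± 0.18 (SD over 9 libraries). Schwann-like cells came second for Rel at a median of 15.3 CPM, 1.42 ± 0.23 on the log2 scale below macrophage-like cells.

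Rela codes for the subunit with the transactivation domain of the common p50 and p65 dimer. It was the most even subunit, with medians of 46.2 CPM in macrophage-like, 24.8 CPM in fibroblast-like and 29.4 CPM in neuron-like cells, and the 9 macrophage-like libraries spanned only 42.8 to 48.9 CPM. Schwann-like cells had the highest median Rela level, 53.8 CPM, above macrophage-like cells in 7 of 9 libraries. Rela was lower in fibroblast-like than in neuron-like cells in 9 of 9 libraries, by a mean log2 ratio of -0.27 ± 0.17. Nfkbib was also lower there in 9 of 9 libraries, at -0.96 ± 0.40. For Nfkbie the mean log2 ratio was -0.62 ± 0.46, with 0.5 UMI added to each sum as in all these ratios. Without that addition its level in the Per1-/- library of day 7 was 3.27 CPM in fibroblast-like and 3.14 CPM in neuron-like cells, the latter from 8 UMI, and it was lower in fibroblast-like cells in the others. Of 14093 genes, 24.1% were higher in fibroblast-like than in neuron-like cells in all 9 libraries and 47.7% lower.

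Nfkb1 had medians of 70.9 CPM in macrophage-like, 36.0 CPM in fibroblast-like and 12.7 CPM in neuron-like cells, with a mean log2 ratio of macrophage-like to fibroblast-like cells of 0.93 ± 0.20. Nfkb2 and Relb, whose products pair in the alternative pathway, were at medians of 23.8 and 26.3 CPM in macrophage-like, 9.18 and 16.7 CPM in fibroblast-like and 1.71 and 4.11 CPM in neuron-like cells. For Nfkb2, the medians of macrophage-like, Schwann-like and mesothelial-like cells (23.8, 20.9 and 19.3 CPM) followed each other with steps smaller than their spread. The same held for Relb between macrophage-like and mesothelial-like cells. The latter class was seen with at least 50 cells in only 4 libraries, none of them WT.

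Rela, Nfkb1 and Rel UMI took different shares of the subunit pool in each class. Rel made up a median of 19.5% of the UMI of the 5 subunits in macrophage-like cells (17.7% to 20.6%), 7.34% in fibroblast-like and 5.0% in neuron-like cells. Rela made up 55.1% in neuron-like cells (46.8% to 64.7%), against 21.9% in macrophage-like and 26.7% in fibroblast-like cells. Nfkb1 held the largest median share in macrophage-like (34.8%) and fibroblast-like cells (39.5%). The ranges of the Rel share in macrophage-like and the other 2 classes did not overlap, nor did those of the Rela share in neuron-like and the other 2.

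Among the inhibitors, Nfkbie and Tnfaip3 separated macrophage-like cells most from fibroblast-like cells. Nfkbie was at 9.93, 13.1 and 21.4 CPM (lowest, median and highest) in macrophage-like cells and at 1.73, 2.05 and 3.27 CPM in fibroblast-like cells, a mean log2 ratio of 2.76 ± 0.37. Tnfaip3 was at 9.47, 13 and 17.1 CPM in macrophage-like, 1.33, 2.39 and 4.04 CPM in fibroblast-like, and 0, 0.904 and 1.79 CPM in neuron-like cells. The ranges of macrophage-like cells stood clear of both other classes for both genes. For Tnfaip3 the log2 ratio of macrophage-like to fibroblast-like cells was 2.56 ± 0.47. Markers of macrophages were present in fibroblast-like and neuron-like sums at a median of 0.222% and 0.246% of their macrophage-like level, and none of the 18 was at 0 there.

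Nfkbia had the highest median of the inhibitors in each of these 3 classes, counted as transcript ends, although on day 10 Nfkbib was above it in neuron-like cells of WT (23.5 against 19.9 CPM) and Per2-/- (23.8 against 21.6 CPM). It was at 49.8, 64.3 and 132 CPM in macrophage-like, 25.4, 30.6 and 42.9 CPM in fibroblast-like and 19.9, 26.3 and 30.2 CPM in neuron-like cells. Mesothelial-like cells had the highest median, 67.0 CPM over 4 libraries, with a step to macrophage-like cells smaller than its spread. These were the Per1-/- libraries of each day and Per2-/- of day 4, none of WT, while the macrophage-like median is over all 9. In the same 4 libraries macrophage-like cells were at 64.3, 132 and 49.8 CPM in Per1-/- and at 92.1 CPM in Per2-/-. Nfkbiz, for the nuclear IkB zeta, was likewise highest in mesothelial-like (14.9 CPM, from the same 4 libraries) and then macrophage-like (12.8 CPM) and Schwann-like cells (11.4 CPM). Neither step exceeded its spread. Nfkbib was the only one of the 10 genes that was not higher in macrophage-like than in neuron-like cells in every library, being higher in 7 of 9. Of 14140 genes, 23.1% were higher in macrophage-like than in neuron-like cells in all 9 libraries and 54.6% lower.

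With each cell thinned to 5000 UMI, at least 1 UMI of Rel was found in a median of 16.9% of macrophage-like, 3.04% of fibroblast-like and 1.18% of neuron-like cells over 9 libraries, and of Nfkbie in 6.68%, 1.02% and 1.5%. Tnfaip3 was found in 6.06%, 1.10% and 0.391%. Without thinning, Rel was found in 52.6%, 11.9% and 3.90% of cells, at class medians of 21904, 22098 and 11542 UMI per cell. Shallower cells left out of the thinned shares numbered 93 macrophage-like, 233 fibroblast-like and 422 neuron-like. Macrophage-like cells held the highest share for each of the 3 genes. A share at so low a depth largely restates the CPM and does not separate the number of expressing cells from the RNA per cell.

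Across 25 clusters of at least 200 cells, the gene whose level moved most like Rel was Soat1 (Pearson r = 0.949), that of Tnfaip3 was Il6ra (0.942), that of Nfkbie was Stxbp2 (0.948) and that of Nfkbia was the immediate early gene Ier5 (0.899). Nfkb1 moved most like Mob1a (0.974), Ripk1 (0.953) and Casp8 (0.951). The 2 remaining genes of the first 3 were Atox1 and Gnai2 for Rel and Efhd2 and Lfng for Nfkbia. Between the 10 genes themselves, the highest value was Rela with Nfkbie (0.872) and the lowest Relb with Nfkbib (-0.022). These are correlations over clusters that share libraries and are given as descriptions, among 10739 genes compared. The 25 include clusters 17 and 18, where 68.5% and 83.1% of cells were scored as doublets and left out. Rel was at 25.4 to 55.3 CPM in cluster 18 and the macrophage-like clusters and at most 15.3 CPM in the others, so its values largely follow that split.

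Whether the genotype changed the 10 genes was tested in each class over the 9 libraries with day in the model. None of the 10 was called in any of the 90 gene tests (edgeR quasi-likelihood, Benjamini-Hochberg adjusted over all genes), and the lowest adjusted p was 0.275. At an unadjusted p below 0.05 there were 4 of 90, where 9.0% of the tests over all genes were (11692 of 129921), and DESeq2 and limma-voom called 0 as well. With edgeR these contrasts called few genes of any kind. In macrophage-like cells, Per1-/- against WT called 0.0158% of 12689 genes, Per1-/- against Per2-/- 0.0394% and Per2-/- against WT 0%. In fibroblast-like cells the shares were 0%, 0.00592% and 0% of 16901 genes, and in neuron-like cells 0.00729%, 0% and 0.0219% of 13717 genes, in the same order. DESeq2 called more, at 63, 162 and 163 genes in macrophage-like, 246, 514 and 123 in fibroblast-like and 9, 27 and 10 in neuron-like cells. Limma-voom called at most 4 genes in any of these contrasts.

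In macrophage-like cells the fitted folds of Per1-/- against WT ranged from -0.08 (Nfkbie, SE 0.39) to 0.33 (Nfkb2, SE 0.26) on the log2 scale, with a median of 0.04 beside 0.004 over all genes. Nfkbia had a fold of 0.07 ± 0.45 (SE, 9 libraries), the widest error of the 10. Rela, by contrast, had the narrowest error of the 10, at -0.01 ± 0.10 (SE). The same genes in Per2-/- against WT ranged from -0.19 (Nfkbie) to 0.31 (Nfkb2). In fibroblast-like cells all 10 folds of Per1-/- against WT were above 0, from 0.03 (Nfkb2) to 0.39 (Nfkbie), where 50.8% of all genes were, and none was called. On day 4 alone the counting interval of Per1-/- against WT lay above 1 for 0 of the 10 and below 1 for 3 (19.9% and 23.2% of all genes), and without the Per1-/- library of day 7 the fold of Nfkbia went from 0.33 to 0.10 and those of Nfkb2, Rela, Relb, Nfkbiz and Tnfaip3 were below 0. In these fibroblast-like sums the 18 macrophage markers were higher in Per1-/- than in WT on each day, at 44.8 against 26.9 CPM on day 4, 84.6 against 35.15 CPM on day 7 and 89.1 against 35.18 CPM on day 10, and they were at 21.5, 100.8 and 134 CPM in Per2-/-. Their part in the folds was not tested. The 2 lowest unadjusted p values there belonged to Per1-/- against Per2-/-, for Nfkb1 (0.34 ± 0.09, adjusted p = 0.275) and Tnfaip3 (0.68 ± 0.27, adjusted p = 0.335). In neuron-like cells Rel was at 0.90 ± 0.37 in Per1-/- against WT and at 0.90 ± 0.36 in Per1-/- against Per2-/-, with adjusted p of 1.0 and 0.728. Its sum in the Per1-/- library of day 7 held 9 UMI, and 95.8% of the neuron-like cells there lay in cluster 15, against 28.8% in WT and 18.9% in Per2-/-, which lay mostly in cluster 8, a difference whose part was not tested. The contrasts with a shared genotype share its libraries. The difference of the genotype effect between macrophage-like and fibroblast-like cells called 0 of the 10 genes for either mutant, with 0.0136% and 0% of 14684 genes called. No gene of the 10 reached an unadjusted p below 0.05, where 7.96% and 16.4% of all genes did, and the lowest was Tnfaip3 in Per2-/- against WT (0.61 ± 0.28, adjusted p = 0.322).

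**Figure D2:**
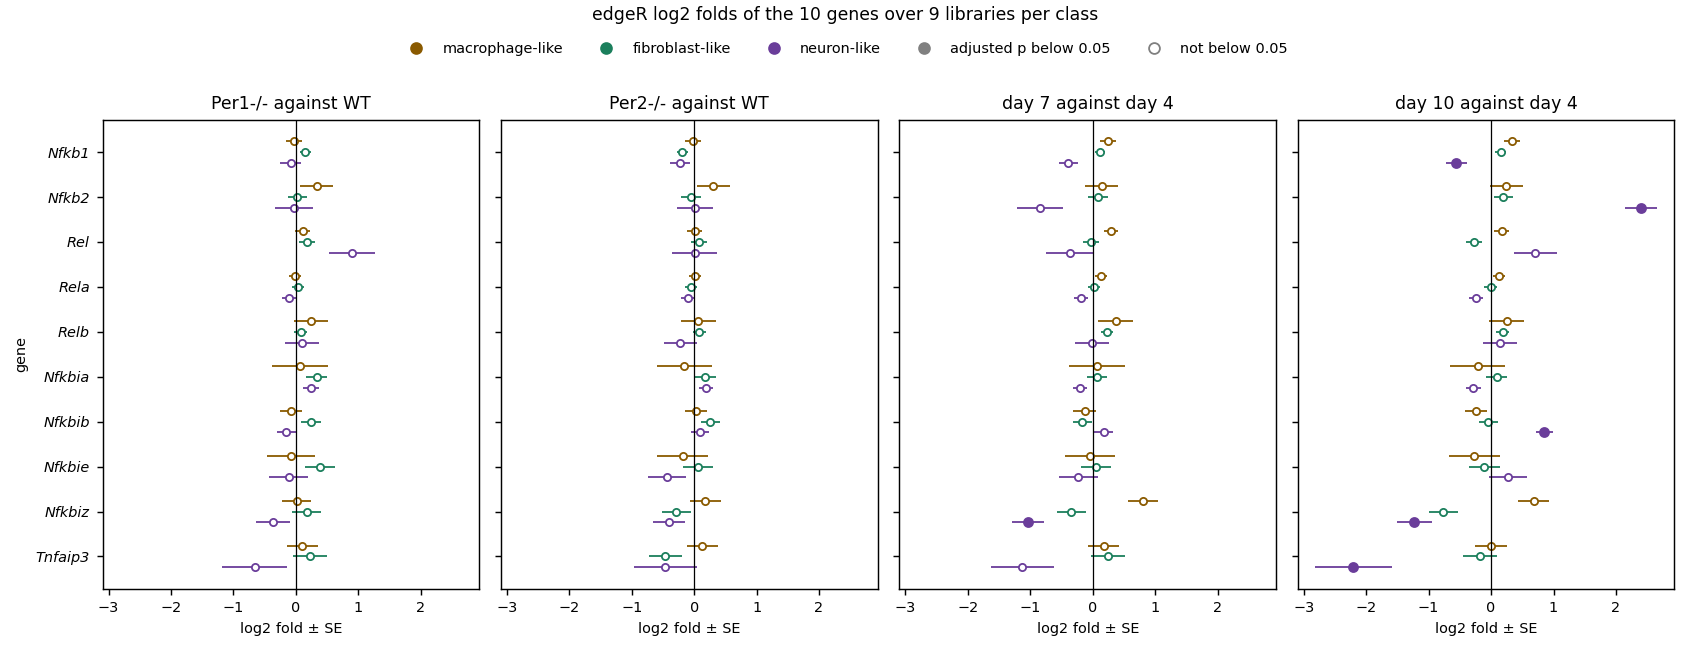
Fitted log2 folds with SE (horizontal axis) of the 10 genes (vertical axis) in 3 classes for 2 genotype and 2 day contrasts, each from 9 libraries. No filled symbol, which stands for an adjusted p below 0.05, appears for the genotype contrasts, and the filled symbols are those of neuron-like cells on day 7 (Nfkbiz) and day 10 (Nfkb1, Nfkb2, Nfkbib, Nfkbiz and Tnfaip3).

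Within days the libraries differed, and in opposite directions. The ratios below compare 1 library with another, with 95% intervals for counting error only, and are no test of genotype. On day 7, macrophage-like cells of the library labelled Per1-/- had Nfkbia at 132 CPM, against 59.9 CPM in WT and 57.9 CPM in Per2-/-, ratios of 2.20 (2.03 to 2.38) and 2.27 (2.15 to 2.41). Relb, which pairs with p52, was at 44.2, 23.1 and 27.7 CPM in the same order. Nfkb2 was at 30.6, 19.4 and 20.5 CPM and Nfkbie at 19.9, 13.1 and 11.4 CPM. Against WT, the interval lay above 1 for 9 of the 10 genes, where it did for 13.8% of all genes and lay below 1 for 28.3%, the exception being Rela at 0.990 (0.901 to 1.09). Against Per2-/- it lay above 1 for 5 of the 10 and below 1 for 1, where 18.9% and 30.6% of all genes did. On day 10 the interval of the same comparison lay below 1 for 7 of the 10 and above 1 for 0 (22.2% and 10.1% of all genes), with Nfkbia at 49.8 CPM in Per1-/- and 92.4 CPM in WT, a ratio of 0.539 (0.488 to 0.596), and Nfkbie at 9.93 and 19.7 CPM. The WT library of day 10, which stood apart in depth, was high against Per2-/- as well: Per2-/- against WT lay below 1 for 6 of the 10 and above 1 for 0 (31.3% and 16.0% of all genes). Without it, the fitted fold of Nfkbie in Per1-/- against WT went from -0.08 to 0.33 and that of Nfkbia from 0.07 to 0.39, neither called. Per1-/- against Per2-/- on day 10 lay below 1 for 4 and above 1 for 0 (26.1% and 32.3% of all genes). On day 4 it lay below 1 for 2 and above 1 for 0 against WT (10.3% and 6.60%), with Nfkbia at 64.3 CPM in Per1-/- and 86.7 CPM in WT, and below 1 for 5 and above 1 for 1 against Per2-/- (7.66% and 11.7%).

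**Figure D3:**
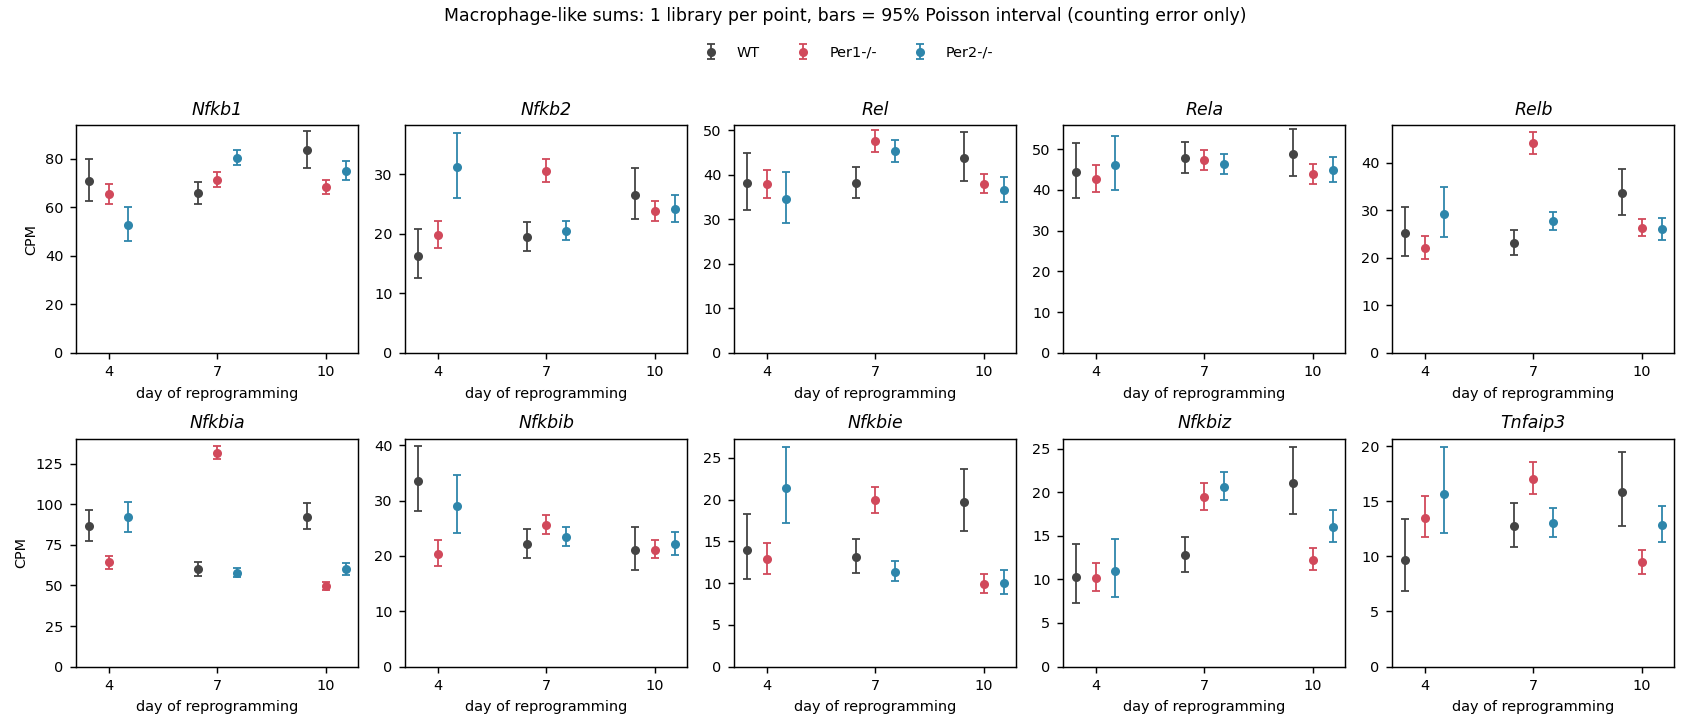
Level in macrophage-like cells (vertical axis, CPM from 0) by day (horizontal axis) and genotype (colour), 1 library per point with its 95% Poisson interval. The Per1-/- point stands above WT and Per2-/- on day 7 for Nfkbia (132 against 59.9 and 57.9 CPM) and below both on day 10 (49.8 against 92.4 and 59.98 CPM).

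The high values of day 7 were present in more than 1 cluster and class. In fibroblast-like cells the interval of Per1-/- on day 7 lay above 1 for 9 of the 10 genes against WT and for 10 of 10 against Per2-/-, where it did for 22.9% and 25.9% of all genes, and it lay below 1 for 0 in both, where it did for 32.5% in each. In neuron-like cells it lay above 1 for only 1 of the 10 against WT and 0 against Per2-/- (8.55% and 8.48% of all genes). There it lay below 1 for 0 in both (9.88% and 11.1%). Nfkbia was at 132 CPM in cluster 9 of the Per1-/- library, which holds most of its macrophage-like cells, against 64.5 CPM in WT and 57.7 CPM in Per2-/-, and at 129.9 CPM in cluster 23, whose leading genes are of cell division, against 45.2 and 59.2 CPM. Of the 6 classes with at least 8 libraries, the Per1-/- library of day 7 had the highest Nfkbia value of all libraries in 5, neuron-like cells being the exception. It was at 42.9 CPM in fibroblast-like cells against 25.4 to 35.7 CPM in the other 8 libraries, and at 92.3 CPM in Schwann-like cells against 32.8 to 68.5 CPM. This library was also the highest for Rel in 4 of the 6 classes and for Relb, Nfkbie and Tnfaip3 in 3, for Nfkb1, Rela and Nfkbiz in 2, and for Nfkb2 and Nfkbib in 0. Of 10107 genes with at least 1 CPM in each of the 6 classes, it was the highest in at least 2 classes for 12.7%, in at least 3 for 2.84%, in at least 4 for 0.534% and in at least 5 for 0.0693%. The library was taken up because its macrophage-like Nfkbia value was high, and its classes come from the same culture. These shares therefore describe the values and are no test. In macrophage-like cells 10 immediate early genes, chosen after values were seen, summed to 1043 CPM in this library against 714.1 to 1003 CPM in the other 8. It was the highest of the 9 libraries for 4 of them (Fosb, Jun, Junb and Ier3) and not for the other 6 (Fos, Egr1, Atf3, Ier2, Dusp1 and Zfp36), with Atf3 at 70.5 CPM below 6 other libraries. In fibroblast-like cells their sum was 572.5 CPM against 490.7 to 650.7 CPM. Mitochondrial UMI were 7.30% in these macrophage-like cells against 5.74% to 7.83%. The part of handling, preparation or these other differences in the Nfkbia values was not tested.

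Without the Per1-/- library of day 7, the fold of Nfkbia in Per1-/- against WT in macrophage-like cells went from 0.07 ± 0.45 to -0.59 ± 0.16 (edgeR, adjusted p = 1.0, without 1 of the 9 libraries), and against Per2-/- to -0.44 ± 0.16 (adjusted p = 0.572). Over all alternatives the adjusted p of the first lay between 0.932 and 1.0. Nfkbie went to -0.57 ± 0.30 against WT. Neither was called.

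The question of change over reprogramming was addressed by comparing days 7 and 10 with day 4, the 3 genotypes serving as repeats of a day. Day 10 also differs from days 4 and 7 in Cell Ranger version and feature table, and its macrophage-like and neuron-like cells lay in other clusters: cluster 14 held 71.4% to 94.2% of macrophage-like cells on day 10 and 0% to 0.0714% before, and cluster 21 held 87.4% to 93.7% of neuron-like cells on day 10 and 0% to 8.03% before. These and the day cannot be told apart.

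In macrophage-like cells 0 of the 10 genes was called on day 7 and 0 on day 10, where 0.898% and 15.7% of 12689 genes were called by edgeR. DESeq2 called 0 on both days as well, where it called 511 and 2285 of all genes. Limma-voom also called 0, where it called 121 and 2189. At an unadjusted p below 0.05 in edgeR there were 2 on each day, where 19.4% and 32.7% of all genes were. The lowest unadjusted p on both days was that of Nfkbiz, which is needed for a subset of NF-kB target genes such as Il6. It was at 10.2, 10.2 and 10.9 CPM in WT, Per1-/- and Per2-/- on day 4, at 12.8, 19.5 and 20.6 CPM on day 7, and at 21.1, 12.2 and 16.1 CPM on day 10. All later values lay above all those of day 4, as they did for Rel on normalised levels. Such lack of overlap between days is described here and below without the share of all genes that show it. It therefore does not set these genes apart from other genes. The folds of Nfkbiz were 0.80 ± 0.24 on day 7 (edgeR, adjusted p = 0.132) and 0.69 ± 0.25 on day 10 (adjusted p = 0.0936). Without the WT library of day 7 both passed the threshold, at adjusted p of 0.0490 and 0.0375. Nfkb1 on day 10 had a fold of 0.33 ± 0.13 (adjusted p = 0.104).

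Fibroblast-like cells also had 0 of the 10 genes called, on day 7 and on day 10, with 2.05% and 17.0% of 16901 genes called. At an unadjusted p below 0.05 there was 0 on day 7 and 1 on day 10, where 19.7% and 33.8% of all genes were. Limma-voom called 0 on both days, where it called 441 and 3082 of all genes. Nfkbiz had the lowest p on day 10, with 7.04, 5.90 and 6.98 CPM in WT, Per1-/- and Per2-/- on day 4 and 4.44, 4.80 and 3.12 CPM on day 10. The groups did not overlap, as was so for Rel and Relb, and the fold of Nfkbiz was -0.77 ± 0.23 (edgeR, adjusted p = 0.0618). DESeq2 called Nfkbiz, at an adjusted p of 0.0109, where it called 3750 of the 16901 genes on day 10. Other genes stayed closer to day 4, within -0.27 (Rel) and 0.20 (Nfkb2) on day 10.

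In neuron-like cells 1 of the 10 genes was called on day 7, where edgeR called 18.4% of 13717 genes, and 5 on day 10, where it called 47.5%. On day 10 2 rose (Nfkb2 and Nfkbib) and 3 fell (Nfkb1, Nfkbiz and Tnfaip3), where 24.4% of all genes rose and 23.1% fell. The call of day 7 was a fall, where 8.22% fell and 10.2% rose. DESeq2 and limma-voom also called 5 of the 10 on day 10, where they called 5468 and 6729 of the 13717 genes. On day 7 they called 0 and 1, where they called 1879 and 2788 of all genes.

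Nfkb2 rose most. It was at 1.74, 1.71 and 1.49 CPM in WT, Per1-/- and Per2-/- on day 4, at 0.845, 1.18 and 0.921 CPM on day 7, and at 8.43, 7.40 and 8.84 CPM on day 10. The day 10 libraries lay far above all the others, from 28, 29 and 104 UMI. The fold on day 10 was 2.40 ± 0.26 (edgeR, adjusted p = 3.99e-06). Within clusters, it was at 6.93 to 8.90 CPM in cluster 21 on day 10 and at 0.420 to 1.97 CPM in clusters 8 and 15 on days 4 and 7, in sums of 1 to 31 UMI.

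Nfkbib rose with an adjusted p of 1.79e-04 and a fold of 0.85 ± 0.14 (edgeR, 9 libraries). It was at 14.0, 11.5 and 13.3 CPM on day 4 and 23.5, 18.6 and 23.8 CPM on day 10 in the same order of genotypes, with no overlap, and at 13.2, 15.3 and 16.2 CPM on day 7, a range that overlapped that of day 4. These 2 genes are the ones whose 3′ ends overlap a gene on the opposite strand. Psd, which codes for a neuronal exchange factor, rose in neuron-like cells by 0.93 ± 0.21 on day 7 (adjusted p = 0.0208) and by 1.23 ± 0.21 on day 10 (adjusted p = 0.00194), and Nfkb2 had a fold of -0.84 ± 0.36 on day 7 (adjusted p = 0.126). Ccer2 fell by 1.20 ± 0.24 on day 10 (adjusted p = 8.45e-04), while Nfkbib rose. How reads of the shared 299 and 314 bases were assigned was not tested, so both values are uncertain.

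**Figure D4:**
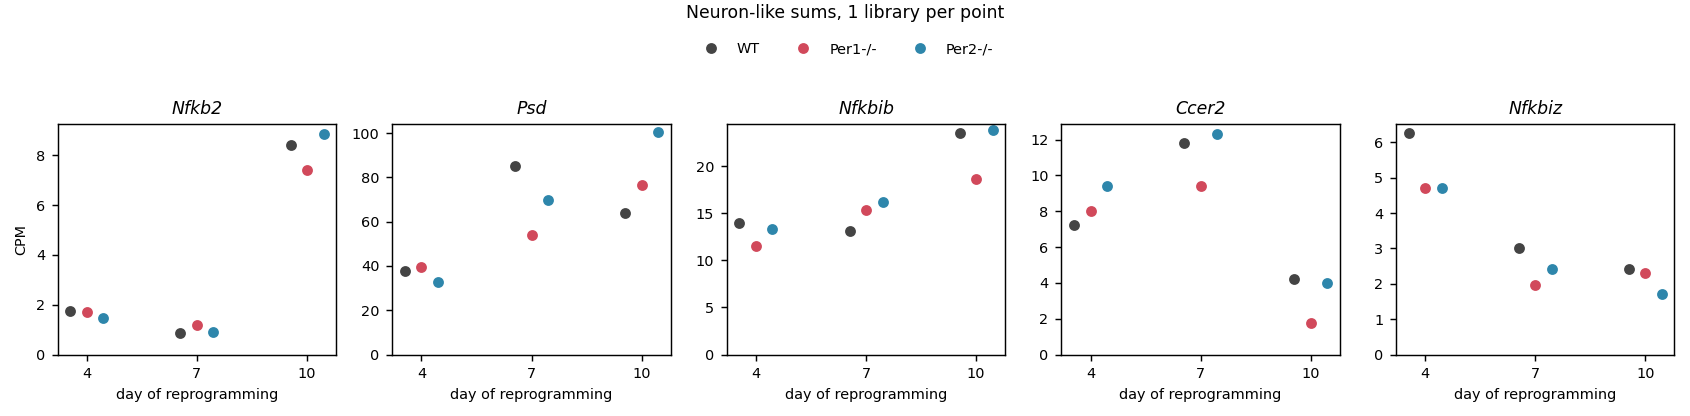
Levels in neuron-like cells (vertical axes, CPM from 0) by day (horizontal axis) of Nfkb2, Nfkbib and Nfkbiz and of the genes Psd and Ccer2 that overlap the 3′ ends of the first 2, with 1 point per library and colour for genotype. Nfkb2 stands at 7.40 to 8.84 CPM on day 10 and at 0.845 to 1.74 CPM before, and Psd is higher on days 7 and 10 than on day 4.

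Of the genes that fell, Nfkbiz was at 6.28, 4.72 and 4.70 CPM on day 4 in WT, Per1-/- and Per2-/-, at 3.02, 1.96 and 2.42 CPM on day 7, and at 2.41, 2.30 and 1.70 CPM on day 10. The day 4 values lay above all later ones. It fell by 1.04 ± 0.26 on the log2 scale on day 7 (edgeR, adjusted p = 0.0124) and by 1.23 ± 0.28 on day 10 (adjusted p = 0.00198). The call of day 7 was lost without WT day 4 (adjusted p = 0.0853), WT day 7 (0.0713) or Per2-/- day 7 (0.0552). Tnfaip3 rested on few molecules, 36, 40 and 20 UMI on day 4 and 3, 0 and 3 UMI on day 10, with a fold of -2.21 ± 0.61 (adjusted p = 0.0084, and 0.0772 without Per2-/- day 10). Nfkb1 was at 20.7, 16.8 and 14.2 CPM on day 4 and at 11.4, 10.5 and 10.5 CPM on day 10, and fell by 0.56 ± 0.16 (adjusted p = 0.0119, and 0.0931 without WT day 4 or 0.0626 without Per1-/- day 10). For these 3 genes no library of day 10 reached one of day 4, and the same held for Rela, which was not called. In the same neuron-like sums the 10 immediate early genes were at 470.1, 470.5 and 523 CPM on day 4 and at 213.8, 325.8 and 274.7 CPM on day 10 in WT, Per1-/- and Per2-/-, and mitochondrial UMI were 5.24% to 6.08% on day 4 and 6.43% to 8.0% on day 10. Neither overlapped between these days, and their part in the changes of the 10 genes was not tested. In WT most of the immediate early sum was Jun (273.4 CPM on day 4 and 123.5 CPM on day 10) and Egr1 (89.9 and 31.6 CPM). Fos (4.68 and 6.02 CPM) and Fosb (0.847 and 1.51 CPM) were higher there on day 10, and the rest of these genes were lower. Rela, Relb, Rel, Nfkbia and Nfkbie did not pass the test on day 10, and their folds were -0.24 ± 0.12, 0.15 ± 0.27, 0.71 ± 0.35, -0.28 ± 0.12 and 0.27 ± 0.30.

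The other genes of the pathway were taken from 5 lists (ligands, receptors, adaptors and kinases, further inhibitors, and targets) of 99 genes in all, of which 89 passed the filter in macrophage-like, 89 in fibroblast-like and 61 in neuron-like cells. None was called in any of the 717 genotype tests (edgeR, adjusted over all genes), of which 84 had an unadjusted p below 0.05, beside the 9.0% of tests over all genes given above. In macrophage-like cells 11 of 29 targets were below 0.05 in Per1-/- against Per2-/-, the most of any list in this class, beside 14.9% of all genes and 15 of the 89 listed genes. The lowest were Cxcl1, a neutrophil chemokine (3.02 ± 0.65, adjusted p = 0.168), and the kinase gene Pim1 (0.75 ± 0.17, adjusted p = 0.176). In fibroblast-like cells 6 of 12 receptors were in the same contrast, beside 13.8% of all genes and 21 of the 89 listed genes, with Tlr3 at 0.77 ± 0.19 and Il1r1 at 1.44 ± 0.37 (adjusted p = 0.275 for both). The median fold of the targets in macrophage-like cells was 0.28 in Per1-/- against WT and 0.26 in Per2-/- against WT, beside 0.004 and -4.0e-05 over all genes.

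By day, macrophage-like cells had 0 of 89 listed genes called on day 7 and 11 on day 10, 5 higher and 6 lower, which is 12.4% beside the 15.7% of all genes (8.53% higher and 7.20% lower). Tnf, the ligand, fell by 1.31 ± 0.30 on the log2 scale (edgeR, adjusted p = 0.0331) and the nuclear inhibitor gene Nfkbid by 0.84 ± 0.23 (adjusted p = 0.0432). Among targets, Cxcl1 fell by 5.73 ± 0.90 (adjusted p = 0.0053), while the chemokine gene Ccl3 rose by 0.63 ± 0.10 (adjusted p = 0.0063) and Irf1, a transcription factor of the interferon response, by 0.88 ± 0.20 (adjusted p = 0.0225). Ikbkg, the regulatory subunit of IkB kinase, rose by 0.48 ± 0.12 (adjusted p = 0.0292).

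Fibroblast-like cells had 2 of 89 listed genes called on day 7, both lower, and 11 on day 10, 6 higher and 5 lower, or 2.25% and 12.4% beside 2.05% and 17.0% of all genes. Those were 0.947% higher and 1.10% lower on day 7, and 9.27% higher and 7.71% lower on day 10. Tnfrsf11a, the receptor of RANKL, fell by 1.87 ± 0.32 on day 7 and by 2.87 ± 0.34 on day 10 (edgeR, adjusted p = 0.0387 and 0.0028), and its ligand gene Tnfsf11 by 0.99 ± 0.18 and 1.02 ± 0.18 (adjusted p = 0.0413 and 0.0106). The Toll-like receptor genes Tlr7, Tlr3 and Tlr4 rose on day 10, by 1.44 ± 0.33, 0.79 ± 0.19 and 0.74 ± 0.18. Macrophage markers moved with them in the fibroblast-like sums, where the 18 summed to 21.5 to 44.8 CPM on day 4 and 35.2 to 134 CPM on day 10, while Tlr7 was at 0.0585 to 0.155 CPM and 0.109 to 0.453 CPM. Their part in the rise was not tested. Of 30 targets, 2 were called on day 10: Ptgs2, for a prostaglandin synthase, fell by 2.50 ± 0.35 and Cd83 rose by 2.12 ± 0.36.

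Neuron-like cells had 8 of 61 listed genes called on day 7, all lower, and 22 on day 10, 5 higher and 17 lower, or 13.1% and 36.1% beside 18.4% and 47.5% of all genes. Of all genes 8.22% were lower on day 7, and 24.4% were higher and 23.1% lower on day 10. Of 21 adaptors and kinases 6 fell on day 10 and 0 rose, among them Traf6 (by 1.34 ± 0.16), Ripk1 (by 1.26 ± 0.16) and Chuk, a catalytic subunit of IkB kinase (by 0.63 ± 0.11). Chuk and Traf6 had fallen on day 7 as well, by 0.46 ± 0.10 and 0.58 ± 0.15. The 16 further inhibitors tested had 7 lower, such as Itch (by 0.54 ± 0.09) and Tnip2 (by 0.85 ± 0.16), and 3 higher, among them Rnf11 (0.55 ± 0.08). The ligand gene Tnfsf12 rose by 1.32 ± 0.19.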

How the data were processed

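The authors deposited whole-number UMI counts, as 1 matrix of genes by barcodes for each library, made with Cell Ranger, version 4.0.0 for days 4 and 7 and 6.0.0 for day 10 per the file headers, while the submitters' processing notes name Cell Ranger 7.1 and mm10. Feature tables list 31053 and 32285 genes, and the 30406 shared identifiers were used. Of 95603 barcodes, 81999 reached 3000 UMI with no more than 20% of them mitochondrial. The cells with the highest Scrublet scores (a share that grew with the number of barcodes, 7164 cells in all) were left out, which left 74835.

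Cells were clustered in scanpy 1.11.5 (2000 variable genes, 30 components, 15 neighbours, Leiden resolution 1, leidenalg 0.10.2) and named from markers (mean log2 fold of at least 1, at least 3 markers). The authors' cell annotation was not used here, so classes are rebuilt. Counts were summed by class and library. CPM intervals are exact 95% Poisson intervals for counting error only. Differences were tested with edgeR 4.0.16 (R 4.3.3; TMM, filterByExpr, two-sided quasi-likelihood F-test, day and genotype as factors, Benjamini-Hochberg over all genes, threshold 0.05). SEs were computed from the fold and F. DESeq2 1.42.0, limma-voom (limma 3.58.1) and other choices were alternatives, and the edgeR step was tested on simulated data. P-values measure the spread between these libraries only. Gene positions are from GENCODE M21 (GRCm38) and promoters from RefSeq (GRCm38.p6), searched for the kappa B consensus.

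The 10 genes and the lists were chosen with earlier results of these data known. All 10 genes are named. Of listed genes, at most 5 called per list and contrast are named by smallest p, or up to 2 where none is called, and the 3 genes most like each of the 10 were ranked over clusters of at least 200 cells among genes of at least 20 CPM in 1 cluster.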

Additional observations from a re-analysis of the deposited data

Results flagged for a closer look

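For some genes every genotype moved one way with time in one class and the opposite way in another. The difference between classes was not tested, each value is a mean log2 ratio of TMM-normalised levels over the 3 genotypes (1 library each), and the classes share libraries. Of these values only the neuron-like ones of Nfkbiz and Nfkb1 belong to folds called by edgeR. The criterion was met between macrophage-like and neuron-like cells by 1 of the 10 genes on day 7 and 3 on day 10, where 11.2% and 16.9% of all genes tested in both met it. On day 10 it was met by 2 between macrophage-like and fibroblast-like cells and by 2 between fibroblast-like and neuron-like cells, where 5.31% and 13.3% of all genes met it. On day 7 these pairs of classes had 0 and 0 of the 10, where 4.58% and 10.6% of all genes met it. Counts this small do not set the 10 genes apart from all genes. Nfkbiz on day 7 against day 4 was at 0.76 in macrophage-like and -1.09 in neuron-like cells. On day 10 against day 4 it was at 0.69 in macrophage-like, -0.74 in fibroblast-like and -1.21 in neuron-like cells. Nfkb1 on day 10 was at 0.34 in macrophage-like, 0.15 in fibroblast-like and -0.57 in neuron-like cells. Rel on day 10 was at 0.17 in macrophage-like, -0.27 in fibroblast-like and 0.77 in neuron-like cells, the last from sums of 14 to 93 UMI per library. Rela on day 10 was at 0.12 in macrophage-like and -0.24 in neuron-like cells. In CPM without TMM, macrophage-like Rela in Per2-/- was lower on day 10 than on day 4 (44.9 against 46.2 CPM), so this item meets the criterion with TMM only.

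One genotype contrast met the same criterion, again with the difference not tested and with no fold called. Between fibroblast-like and neuron-like cells 1 of the 10 genes met it, where 2.29% of all genes did. Over the 3 days, Rela in Per1-/- against WT was at 0.035 in fibroblast-like and -0.11 in neuron-like cells on TMM-normalised levels. In CPM without TMM the fibroblast-like value was lower in Per1-/- than in WT on day 7 (26.7 against 26.8 CPM) and day 10 (24.2 against 25.5 CPM), so the criterion is met with TMM only.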

How the results depend on the processing

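Normalisation, filter, tool, doublets, a minimum of 5000 UMI, Leiden resolution 2, leaving out day 10, the model's terms and each library left out in turn were tried, and, chosen after seeing the data, leaving out cells whose barcode another library shares. Of 302 recomputed counts of genes called, 293 kept within 1.5 times the main count. The main count was 0 for all genotype contrasts and for both days in macrophage-like and fibroblast-like cells, where a kept count is again 0. Of 2820 recomputed folds of the 10 genes, 216 changed sign, none of them called in either fit, such as Nfkbia in macrophage-like cells without Per1-/- day 7, and 129 folds and 27 class differences moved by more than their SE. DESeq2 called 1 gene in fibroblast-like cells on day 10 (Nfkbiz, main count 0) and 0 in neuron-like cells on day 7 (main count 1). Leaving out 1 library gave 0 to 1 genes called for both days in macrophage-like cells (1 without WT day 7, Nfkbiz), for Per1-/- against Per2-/- in fibroblast-like cells (1 without Per1-/- day 4, Tnfaip3 at 0.99 with adjusted p = 0.0469), for day 10 in fibroblast-like cells (1 without Per1-/- day 4, Nfkbiz) and for day 7 in neuron-like cells (0 without WT day 4, WT day 7 or Per2-/- day 7). In neuron-like cells on day 10, Nfkb2, Nfkbib and Nfkbiz were called in 18 of 18 alternatives, Tnfaip3 in 17 (lost without Per2-/- day 10) and Nfkb1 in 16 (lost without WT day 4 or Per1-/- day 10), and Nfkbia was gained when doublets were kept or shared barcodes left out. The causes were not tested. Thinned to 3000 UMI, shares of macrophage-like cells were 18.9% (Nfkb1), 6.85% (Nfkb2), 10.5% (Rel), 13.2% (Rela), 7.64% (Relb), 15.6% (Nfkbia), 6.59% (Nfkbib), 4.05% (Nfkbie), 3.95% (Nfkbiz) and 3.72% (Tnfaip3), lower by construction. Ratios between classes kept within their spread in 130 of 130. The labels give no replicate numbers, and libraries were matched by day and genotype through the terms of the model. Depth limits Tnfaip3, Nfkb2 and Rel most in neuron-like cells.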
